A study of Rattus norvegicus with 6 samples.

Results

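Salt transport genes of the thick ascending limb and the distal convoluted tubule were followed in 6 rats, all male and Sprague-Dawley, with RNA of the renal cortex on 1 microarray per animal. The 8 genes, of 31637 genes or unnamed transcripts with a probe kept for testing, are Umod, Slc12a1, Slc12a3, Kcnj1, Bsnd, Wnk1, Wnk4 and Stk39, and they were found by matching the accession of each non-control probe to the RefSeq gene table. This gave 19 probes of 61537 non-control probes on the array, with 2 to 4 probes per gene. All 19 were well above background on all 6 arrays, so none was lost to the filter on dim probes.

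The control group was 3 animals given the vehicle corn oil for 4 weeks. The other 3 animals were given tricresyl phosphate, an ester of phosphoric acid found in plastics and hydraulic fluids, at 200 mg/kg/day for 4 weeks. All animals came from the same supplier at 5 weeks of age, ate the same basal diet and belonged to the Crl:CD(SD) stock, and the labels name no transgene. The comparison asks whether transcripts of the renal cortex differed after tricresyl phosphate.

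The thick ascending limb reabsorbs salt without water. Slc12a1 (the furosemide-sensitive cotransporter NKCC2) takes sodium, potassium and chloride from the lumen, Kcnj1 (the channel ROMK) returns the potassium, and chloride leaves through basolateral ClC-K channels that need barttin, the product of Bsnd. In the distal convoluted tubule, which follows, the thiazide-sensitive cotransporter encoded by Slc12a3 (NCC) takes up sodium and chloride. The kinases WNK1 and WNK4 act upstream of SPAK, the product of Stk39, which phosphorylates and activates both cotransporters, and uromodulin, the product of Umod, is the protein that the thick ascending limb secretes into urine.

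The annotated starts of Umod, Slc12a1 and Slc12a3 are shown because these genes mark the 2 segments and because Umod and Slc12a1 had their lowest level in the same animal. Each sequence is the 250 bases before the RefSeq start on assembly GRCr8, read on the strand of the gene. Capitals mark every match to any of 4 motifs searched on both strands: TATAAA (the core of the TATA box), GTTAAT (part of the site of HNF1 factors), AAGGTCA (part of the site of oestrogen-related receptors) and GGGCGG (the GC box).
Umod, chr1:183261017-183261266, minus strand: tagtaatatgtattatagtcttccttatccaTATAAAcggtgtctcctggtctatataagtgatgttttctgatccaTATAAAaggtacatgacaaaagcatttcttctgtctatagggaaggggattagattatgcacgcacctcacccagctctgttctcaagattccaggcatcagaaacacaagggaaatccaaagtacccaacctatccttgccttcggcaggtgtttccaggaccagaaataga
Slc12a1, chr3:132859409-132859658, plus strand: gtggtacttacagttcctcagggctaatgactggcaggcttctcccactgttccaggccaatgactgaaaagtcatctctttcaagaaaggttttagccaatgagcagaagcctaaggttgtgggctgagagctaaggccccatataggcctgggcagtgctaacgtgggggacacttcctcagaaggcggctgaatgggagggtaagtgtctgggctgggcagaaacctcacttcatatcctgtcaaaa
Slc12a3, chr19:10675051-10675300, minus strand: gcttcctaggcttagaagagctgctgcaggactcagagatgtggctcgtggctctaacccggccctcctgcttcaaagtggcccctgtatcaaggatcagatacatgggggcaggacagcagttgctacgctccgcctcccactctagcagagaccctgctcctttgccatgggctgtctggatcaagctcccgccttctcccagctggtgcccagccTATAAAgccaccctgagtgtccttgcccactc

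TATAAA was present in the windows of Umod, Slc12a3 and Kcnj1, 3 of the 8 genes, against 12.9% of 33469 windows of the same length. Umod holds it at 2 places, 219 to 214 and 173 to 168 bases before the start, and Slc12a3 at 32 to 27 bases before the start. GGGCGG was present in the windows of Wnk4 and Stk39 (30.5% of all windows). GTTAAT (6.5% of all windows) and AAGGTCA (4.0%) had no match in any of the 8. All 8 genes had an entry in the table, and Slc12a1 and Kcnj1 had 2 entries each, of which the first of Slc12a1 is printed. These matches describe letters in the windows and no binding was measured.

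Values below are levels or differences on the log2 scale. A level is the log2 processed signal of a probe minus the 75th percentile of all non-control probes on the same array, and a difference is the mean of tricresyl phosphate minus the mean of corn oil. The levels of different probes are not comparable with each other, so only differences between animals are described. The median signal per array lay between 102.6 and 133.2 over a median background of 33.0 to 41.0, and 41503 to 43823 probes per array were well above background. Corn oil replicate 1 was on slide 1 and the other 5 arrays on slide 2, so the within-slide difference compares those 5. Corn oil replicate 2 and tricresyl phosphate replicate 3 were the highest animals in 4 of 6 hepatocyte markers (Alb, Ttr, Serpina1 and Apoa2), whereas tricresyl phosphate replicate 1 was above replicate 3 for Fgb and the same 2 arrays were the lowest for Apoc3. Their mean level over the list was 0.47 and 0.20, and those of the other 4 animals lay between −2.59 and −1.17. The cause of these hepatocyte signals was not tested, and results are also given without those 2 arrays where the direction depends on them.

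No difference between the groups passed the test in any of the 19 probes. With limma and Benjamini-Hochberg adjustment over 43099 probes, 0 of 19 passed an adjusted p under 0.05, and 0 of 43099 did (0%). At an unadjusted limma p under 0.05 there were 0 of 19 member probes, against 2337 of all probes (5.42%). The groups overlapped in every member probe, whereas they did not overlap in 5070 of all probes (11.8%). Adjusted limma p-values of the members lay between 0.816 and 0.971. Taking the brightest probe of each gene, 4 genes had a lower mean (2 under cyclic loess normalization, 1 under normexp with quantile normalization and 6 without the 2 arrays with the highest hepatocyte markers) and 4 a higher mean with tricresyl phosphate (40.8% of all genes by their brightest probe were higher), and the median difference was −0.003 (−0.07 without those 2 arrays), beside −0.022 over all probes tested. Over all 19 probes 5 differences lay below 0 and 14 above, and 44.8% of all probes lay above 0. Because a cortex sample mixes many cell types, fewer cells of a type and less RNA per cell cannot be told apart in any value here.

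**Figure D1:**
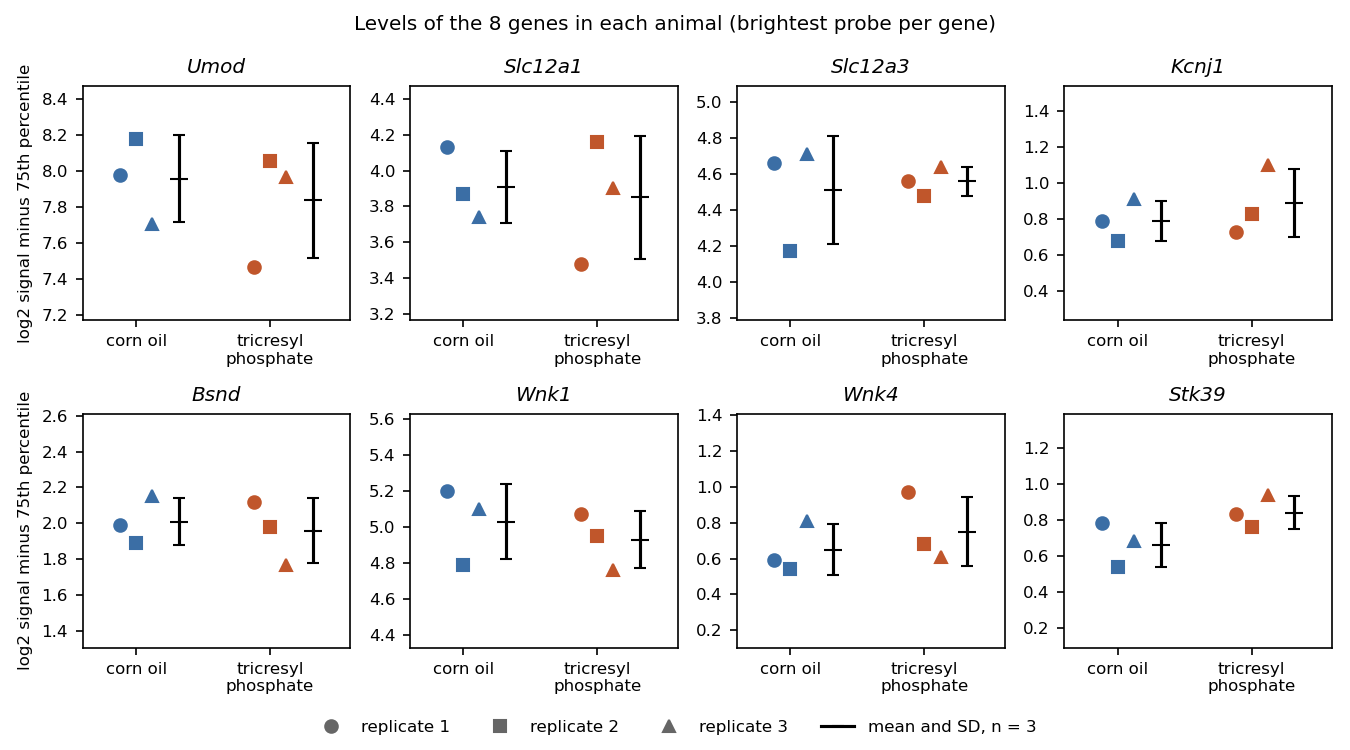
Level of the brightest probe of each gene in each animal (vertical axis, log2 signal minus the 75th percentile of the array; each panel spans 1.3 log2 units), with the mean and SD of 3 animals beside the points. The groups overlap in all 8 panels, and tricresyl phosphate replicate 1 is the lowest animal for Umod at 7.47 and for Slc12a1 at 3.48.

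Umod is the marker of the thick ascending limb in this set. Its brighter probe, A_43_P11809, was at 7.98, 8.18 and 7.71 in corn oil replicates 1, 2 and 3, and at 7.47, 8.06 and 7.97 in tricresyl phosphate replicates 1, 2 and 3. Only tricresyl phosphate replicate 1 lay outside the corn oil range, below it. The corn oil mean was 7.96 ± 0.24 (SD, n = 3) and the tricresyl phosphate mean 7.84 ± 0.32 (SD, n = 3). The groups differed by −0.12 ± 0.20 (SE), a 0.918-fold level with a 95% interval from 0.656-fold to 1.28-fold, and the adjusted limma p was 0.908. The second probe, A_64_P022545, gave the same order of the 6 animals and a difference of −0.18 ± 0.19 (SE). Without tricresyl phosphate replicate 1 the difference of the brighter probe was 0.06, within the shared slide it was −0.11, and under cyclic loess and normexp it was 0.013 and 0.015.

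Slc12a1, the apical sodium, potassium and chloride entry step of this segment, also varied more within the groups than between them. Its brighter probe, A_64_P007973, was at 4.13, 3.87 and 3.74 in the corn oil animals and at 3.48, 4.16 and 3.90 in the tricresyl phosphate animals. The tricresyl phosphate group thus held both the lowest and the highest of the 6 values. The difference was −0.07 ± 0.20 (SE), a 0.955-fold level with a 95% interval from 0.685-fold to 1.33-fold, and the adjusted limma p was 0.954. The dimmer probe, A_42_P471442, had the opposite sign, at 0.09 ± 0.24 (SE), with levels of 3.20, 3.13 and 2.93 against 2.65, 3.38 and 3.51. Within the shared slide the difference of the brighter probe was 0.04, without tricresyl phosphate replicate 1 it was 0.12, and under quantile normalization it was 0.0098.

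Kcnj1, the apical potassium channel, was at 0.79, 0.68 and 0.91 with corn oil and at 0.73, 0.83 and 1.10 with tricresyl phosphate (probe A_44_P470683). Tricresyl phosphate replicate 3 was the highest animal, and the remaining 5 overlapped. The difference was 0.10 ± 0.13 (SE), with a 95% interval from −0.21 to 0.40 and an adjusted limma p of 0.884. The other probe, A_64_P067153, differed by 0.16 ± 0.15 (SE) and also had its highest level, 0.75, in tricresyl phosphate replicate 3. Within the shared slide the difference of the first probe was 0.09, and without the 2 arrays with the highest hepatocyte markers it was −0.06.

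Bsnd, the barttin subunit of the basolateral chloride channels, had probes of opposite sign. A_64_P119022 was at 1.99, 1.89 and 2.15 with corn oil and at 2.12, 1.98 and 1.77 with tricresyl phosphate, which gave −0.05 ± 0.13 (SE) at an adjusted limma p of 0.941. A_42_P755115 differed by 0.08 ± 0.13 (SE). Both intervals, from −0.36 to 0.25 and from −0.24 to 0.40, include 0, and the sign of the first turned under normexp (0.011) and when the third array of either group was left out (0.016 for corn oil, 0.041 for tricresyl phosphate). Within the shared slide that probe differed by −0.06.

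Slc12a3, the sodium chloride cotransporter of the distal convoluted tubule, was measured by 3 probes with nearly equal differences of 0.05, 0.04 and 0.05. The brightest, A_64_P015612, was at 4.66, 4.17 and 4.71 with corn oil and at 4.56, 4.48 and 4.64 with tricresyl phosphate. Corn oil replicate 2 was the low animal, and the 3 tricresyl phosphate animals lay within the corn oil range. The means were 4.51 ± 0.30 (SD, n = 3) and 4.56 ± 0.08 (SD, n = 3), and the 95% interval of the ratio ran from 0.786-fold to 1.36-fold, with an adjusted limma p of 0.961. Without corn oil replicate 2 the difference was −0.13, within the shared slide it was 0.12, and without the 2 arrays with the highest hepatocyte markers it was −0.17.

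The level of Slc12a1 relative to that of Slc12a3 in the same animal compares the cotransporters of the 2 segments without what an array shares. The change in this difference between groups was −0.11, with animals at −0.53, −0.29 and −0.97 with corn oil and at −1.08, −0.32 and −0.74 with tricresyl phosphate. An exact two-sided permutation test gave p = 0.7 for 3 against 3 animals, where the smallest possible p is 0.1. The value turned to 0.07 without tricresyl phosphate replicate 1 and to 0.04 without corn oil replicate 2.

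The kinases that act on the cotransporters were measured by 8 probes. Wnk1 was represented by 4 probes, which differed by −0.10, 0.09, 0.30 and 0.03 from the brightest to the dimmest. The brightest, A_44_P204569, was at 5.20, 4.79 and 5.10 with corn oil and at 5.07, 4.95 and 4.76 with tricresyl phosphate, with an adjusted limma p of 0.891. Its difference was 0.0017 under normexp and −0.02 within the shared slide. The probe with the difference of 0.30 ± 0.26 (SE), A_44_P276080, was at −1.75, −1.48 and −0.78 with corn oil and at −1.21, −0.94 and −0.96 with tricresyl phosphate. It also had the widest spread of the 19 probes, with a within-group SD of 0.37 that exceeded the SD of 85.5% of all probes. Which Wnk1 transcripts each probe detects beyond its array accession was not analysed here.

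Wnk4 was at 0.59, 0.54 and 0.81 with corn oil and at 0.97, 0.68 and 0.61 with tricresyl phosphate (probe A_42_P468909). Tricresyl phosphate replicate 1, which was lowest for Umod and Slc12a1, was highest for this probe. The difference was 0.10 ± 0.13 (SE), the adjusted limma p was 0.88, and the second probe also differed by 0.10. Without tricresyl phosphate replicate 1 the difference of the first probe was −0.003, and within the shared slide it was 0.08.

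Stk39 had the lowest unadjusted p of the 19 probes, 0.129, with an adjusted limma p of 0.816. Probe A_42_P707872 was at 0.78, 0.54 and 0.68 with corn oil and at 0.83, 0.76 and 0.94 with tricresyl phosphate, so that corn oil replicate 1 lay above tricresyl phosphate replicate 2 and the groups overlapped in this pair only. The difference was 0.18 ± 0.10 (SE), a 1.13-fold level with a 95% interval from 0.953-fold to 1.35-fold. The second probe, A_44_P476780, differed by 0.20 ± 0.16 (SE), with levels of −2.28, −2.52 and −1.91 against −2.03, −2.07 and −2.02. Within the shared slide the first probe differed by 0.24 with an adjusted limma p of 0.946, and without the 2 arrays with the highest hepatocyte markers by 0.07.

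**Figure D2:**
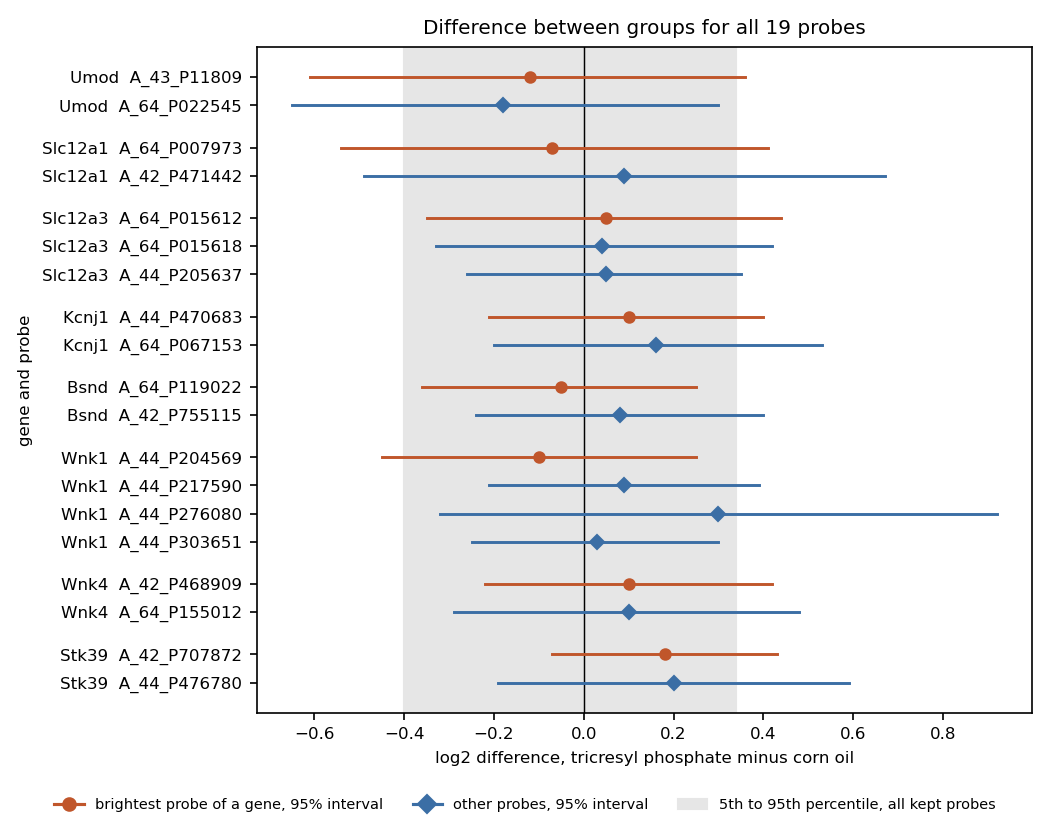
Difference between the groups (horizontal axis, log2, tricresyl phosphate minus corn oil) with its 95% interval for all 19 probes, beside the range from the 5th to the 95th percentile of the differences of all kept probes, −0.40 to 0.34. All 19 intervals include 0, and all 19 differences, from −0.18 to 0.30, lie inside that range.

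The precision differed between the genes. The within-group SD was 0.28 for the brighter probes of Umod and of Slc12a1, which exceeded the SD of 76.0% and 75.4% of all probes. For the brighter Stk39 probe it was 0.11, which exceeded that of 25.6%. The 95% intervals of the brightest probes spanned ratios from 0.656-fold at the lowest bound (Umod) to 1.36-fold at the highest (Slc12a3). With 3 animals per group, ratios inside these intervals could not be told from no difference.

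Which animal was the lowest or the highest differed between the genes. Tricresyl phosphate replicate 1 was the lowest animal in 4 of 4 probes of Umod and Slc12a1, and it was the lowest in 10.7% of all probes. These 4 probes were set apart after their values were seen. In the 15 other member probes tricresyl phosphate replicate 1 was the lowest in none. There the lowest animal was corn oil replicate 2 in 8, corn oil replicate 1 in 5 and tricresyl phosphate replicate 3 in 2. Over all probes the shares of these 3 animals were 15.8%, 18.9% and 24.9%. Corn oil replicate 2 was the lowest animal in 8 of the 19 member probes, among them all 3 of Slc12a3, both of Kcnj1 and both of Stk39, against 15.8% of all probes. It was the highest in both Umod probes, against 15.8% of all probes. Corn oil replicate 3 was the highest animal in 7 of the 19 (17.8% of all probes) and the lowest in none (12.6% of all probes). The probes of a gene share their target, so these counts are a description. The part that hepatocyte signals in corn oil replicate 2 had in its low values was not tested.

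**Figure D3:**
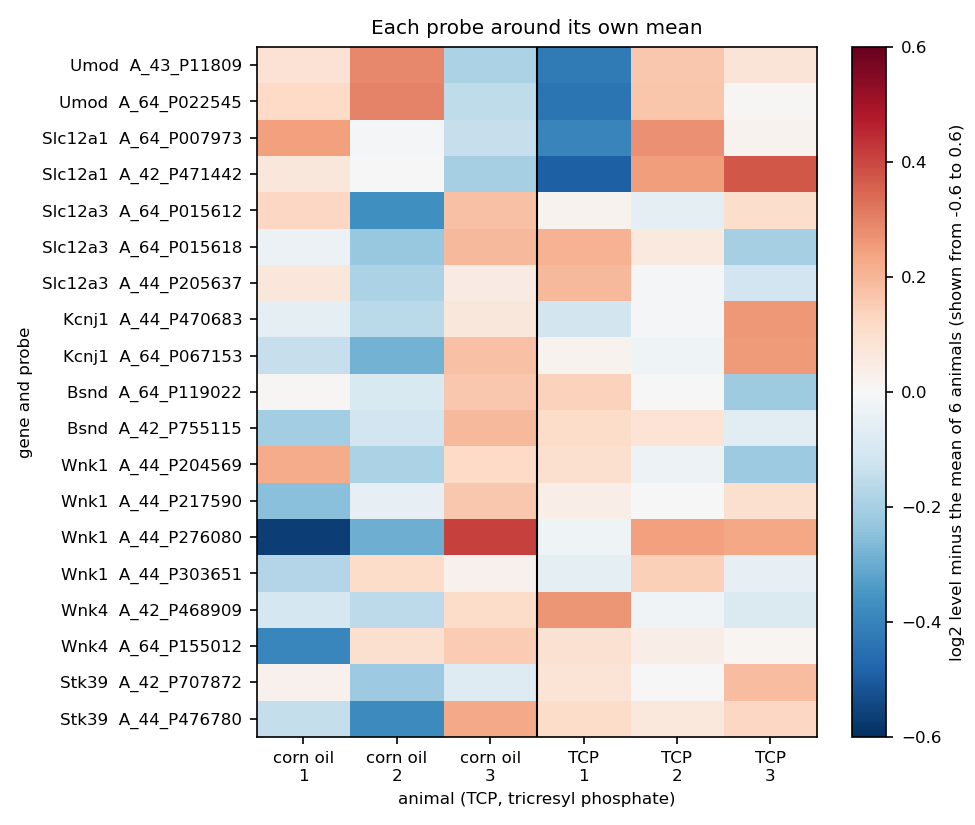
Level of each of the 19 probes in each animal around the mean of that probe over the 6 animals (colour, log2 units from −0.6 to 0.6; rows are probes, columns animals). Tricresyl phosphate replicate 1 is low in all 4 probes of Umod and Slc12a1, and corn oil replicate 2 is low in all 3 probes of Slc12a3.

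Further genes of the thick ascending limb gave no call either. Of 24 listed genes 22 were measured, of which 13 were higher (40.8% of all genes) and 9 lower (9 and 13 under median scaling), with a median of 0.008. None passed an adjusted limma p under 0.05 or an unadjusted limma p under 0.05 (5.55% of all genes did the latter), and the groups did not overlap in 1 (11.8% of all genes). That gene was Kcnj16, a basolateral potassium channel subunit, at 4.90, 4.82 and 4.73 with corn oil and at 4.70, 4.57 and 4.41 with tricresyl phosphate. The groups differed by −0.26 ± 0.11 (SE), or −0.16 under quantile normalization and under normexp, and the adjusted limma p was 0.816. Irx1, a homeobox gene, had a difference of −0.31 ± 0.15 (SE) by the brighter and −0.15 by the dimmer probe. Ptger3, a prostaglandin E2 receptor, differed by 0.19 ± 0.14 (SE). Tricresyl phosphate replicate 1 was the lowest animal in 7 of the 22 (10.7% of all probes). Among these, named after their values were seen, were Casr, the calcium-sensing receptor, at 3.20 against 3.46 to 3.89 in the other 5 animals, and Sorl1, a sorting receptor, at 2.61 against 2.82 to 3.30. No array had Nos1, of the macula densa, well above background, and Enox1 was not analysed here.

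Genes of the distal convoluted tubule, 12 measured of 14 listed, were higher in 8 and lower in 4 (40.8% of all genes were higher), with a median of 0.055. None passed an adjusted limma p under 0.05, 1 had an unadjusted limma p under 0.05 (5.55% of all genes), and the groups did not overlap in 2 (11.8% of all genes), Kcnj15 and Trpv5. The gene with the low unadjusted p was Kcnj15, an inwardly rectifying potassium channel gene, at 0.13, 0.24 and 0.34 with corn oil and at 0.56, 0.59 and 0.45 with tricresyl phosphate. The groups differed by 0.30 ± 0.10 (SE), with an unadjusted limma p of 0.0211, an adjusted limma p of 0.816 and a second probe at 0.38. Trpv5, the apical calcium channel, differed by 0.34 ± 0.20 (SE), with groups that did not overlap and its other probe at 0.12. The brighter probe was at −2.14, −2.80 and −2.12 with corn oil and at −2.07, −1.88 and −2.09 with tricresyl phosphate. Corn oil replicate 2 was thus its lowest animal, well below the rest. Fxyd2, a small membrane protein gene that is also in the thick ascending limb list, differed by −0.12 ± 0.10 (SE), or 0.01 under cyclic loess, and Nr3c2, the mineralocorticoid receptor, by −0.19 ± 0.18 (SE), with its other probes from 0.22 to 0.68. No array had Pvalb, a classical marker of this segment, well above background, and Trpm6 was not analysed here.

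Genes of WNK and SPAK control and related cotransporters, 13 measured of 18 listed, were higher in 5 and lower in 8, with a median of −0.029. Under quantile and cyclic loess normalization 7 were higher and 6 lower, and 40.8% of all genes were higher. None of the 13 passed an adjusted or an unadjusted limma p under 0.05 (5.55% of all genes did the latter). The groups did not overlap in 1 (11.8% of all genes), Slc12a2. Slc12a4, a potassium chloride cotransporter, differed by 0.25 ± 0.13 (SE). Ppp1r1a, an inhibitor of protein phosphatase 1, was at 5.92, 5.63 and 5.94 with corn oil and at 5.72, 5.61 and 5.44 with tricresyl phosphate, a difference of −0.24 ± 0.13 (SE), and its dimmer probe gave −0.22. Under quantile, cyclic loess and normexp its difference was −0.13, −0.14 and −0.11. Cab39l, a scaffold of SPAK, differed by −0.13 ± 0.11 (SE), or −0.08 under normexp. Slc12a2, the basolateral sodium, potassium and chloride cotransporter, differed by −0.09 ± 0.08 (SE), with its other probes from −0.06 to 0.11. The lowest corn oil level of its brightest probe was 0.12 and the highest tricresyl phosphate level 0.09. The adjusted limma p of these 4 lay between 0.816 and 0.841. Of the other WNK kinases, Wnk2 was well above background on 0 arrays and Wnk3 on 2, so neither was tested, and Klhl2, Klhl3 and Nedd4l were not analysed here.

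**Figure D4:**
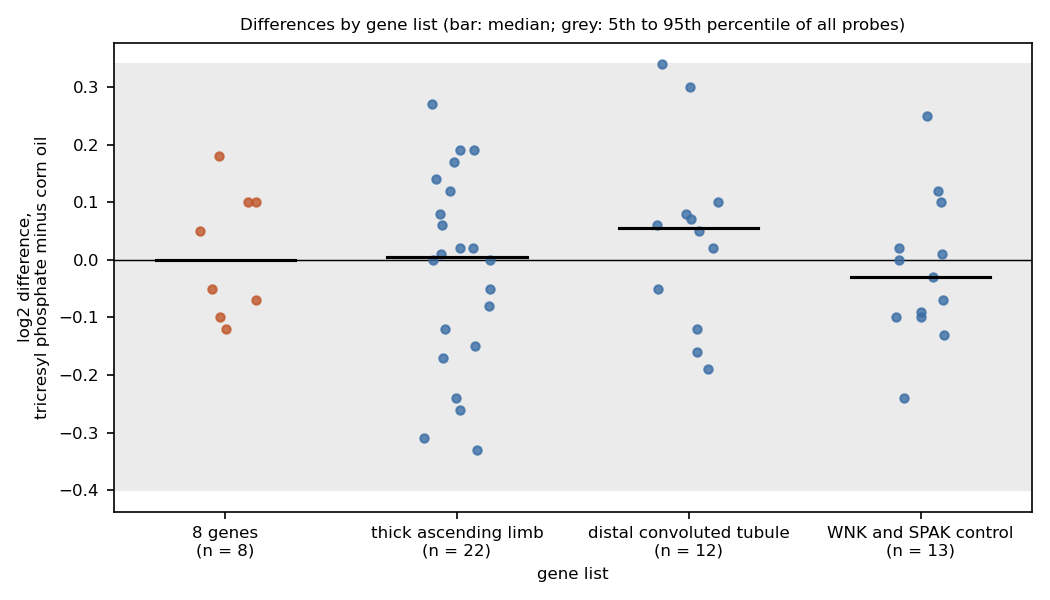
Difference between the groups (vertical axis, log2, tricresyl phosphate minus corn oil) for the brightest probe of each of the 8 genes and of the genes of 3 related lists, each point 1 gene and each bar the median. The medians are −0.003, 0.008, 0.055 and −0.029, and the points lie within or at the edge of the range from the 5th to the 95th percentile of all probes, −0.40 to 0.34.

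Markers of other cell types were set beside these values for all 10 lists. Proximal tubule markers were lower in 7 of 10 (4 under quantile and cyclic loess normalization), with summed linear signals of 2240 to 2390 with corn oil and 1970 to 2330 with tricresyl phosphate. Principal cell markers of the collecting duct were higher in 4 of 5, or 5 of 5 under quantile, cyclic loess and normexp (144 to 176 against 154 to 177). Intercalated cell markers were higher in 2 of 5, or 4 of 5 under quantile, cyclic loess and normexp (133 to 159 against 125 to 179). Medullary markers, which could come with tissue from below the cortex, were higher in 3 of 5, or 2 of 5 under normexp (11.7 to 15.1 against 12.1 to 13.9). Podocyte markers were higher in 2 of 5, or 3 of 5 under quantile, cyclic loess and normexp (25.5 to 33.6 against 25.9 to 33.3), and endothelial markers in 1 of 4 (29.6 to 33.0 against 27.2 to 33.5). Hepatocyte markers were higher in 5 of 6, or 4 of 6 under median scaling (9.14 to 18.4 against 10.2 to 15.6). Apoc3, the brightest of them, differed by 0.01. Leucocyte markers were higher in 2 of 4 (33.7 to 35.7 against 33.3 to 53.3), and fat markers in 1 of 2 (0.926 to 1.38 against 1.04 to 1.25). The leucocyte sum came mostly from Cd74, which differed by 0.37 ± 0.20 (SE). Cd3e was higher at 0.10, and Cd68 and Ptprc were lower at −0.16 and −0.03. Blood markers were lower in 4 of 4, with 530 to 592 against 425 to 531. No marker passed an adjusted limma p under 0.05. Of the 50 markers measured, each counted once, 5 had an unadjusted limma p under 0.05 (5.55% of all genes) and the groups did not overlap in 8 (11.8% of all genes). The 5, named after their values were seen, were the blood markers Epb42, Alas2 and Hbb at −0.31, −0.34 and −0.34, Slc6a12 of the medulla list at −0.24 and Aqp4 of the principal cell list at 0.45. Each of these had an adjusted limma p of 0.816. The other probe of Slc6a12 differed by −0.04, that of Hbb by −0.33, and the other Aqp4 probes by 0.05 to 0.71. Epb42 was dim, with levels from −4.89 to −4.45. The part of these cells in the values of the 8 genes was not tested.

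For each of the 8 genes, the genes with the most similar pattern over the 6 arrays were found by the root mean square difference after each probe was centred on its own mean, among 12398 genes with a symbol. With 6 arrays and 12398 genes to choose from, near matches can also arise by chance. Rps12l4 was the nearest to Umod at 0.053, and Irx2, a homeobox gene of the thick ascending limb list, the second at 0.054. This Irx2 probe differed between the groups by −0.08 and the other Irx2 probe by 0.19. The nearest to Slc12a1 were Or5h27b at 0.025 and Scel at 0.066, and to Slc12a3 Pde4dip and Dcps at 0.046 each. The nearest to Kcnj1 were Prss23 at 0.018 and Vps53 at 0.029, and to Bsnd Crtap at 0.009 and Foxred2 at 0.032. The nearest to Wnk1 were Fam81a at 0.034 and Ndrg2 at 0.037, to Wnk4 Aff1 and Pfkfb3 at 0.029 each, and to Stk39 Rb1 at 0.021 and Mknk1 at 0.024. None of these likenesses was tested.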

How the data were processed

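RNA of 6 renal cortex samples, separate animals, was labelled with Cy3 and hybridised to 1-colour Agilent arrays. Per the file headers, the authors quantified the spots with Feature Extraction 10.7.1.1 (10.7 in the submitters' processing notes). The deposited intensity values are linear, background-subtracted and detrended within each array. The 0 or 1 flags for spots well above background and outlier spots come from the same files. The authors' value table holds a further deposited intensity, which is the processed signal rescaled by a constant for each array. The array design was annotated on rn4 per the file headers, so no probe coordinates are given.

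The 1439 control spots were left out and 77 outlier spots set missing. Probes well above background on at least 3 of 6 arrays were kept (43099 of 61537). Accessions were matched to RefSeq genes of GRCr8, and 28193 probes had 1 symbol, 0 several and 33344 none. Each probe was tested two-sided for a group difference by limma 3.58.1 (lmFit, eBayes; R 4.3.3). P-values were adjusted by Benjamini-Hochberg over all kept probes, and the threshold was 0.05. SE and 95% intervals come from this fit. The number of arrays limits the precision. In simulated data of the same comparison over 43099 probes, the fit recovered 48.0% of 100 probes changed by 1 log2 unit and 87.0% of 100 changed by 2, with 3 false calls. The simulated noise was normal and independent between probes. With 138 calls in all, its adjusted cutoff was looser than in the measured data, where 0 passed. Changes under 1 log2 unit were not simulated, and the largest member difference was 0.30. For each gene list the 4 genes with the smallest p are named, except 1 that is not reported here, all members are named whatever their values, and so are the 2 genes most like each member. The members and lists were chosen with earlier results of these data known. Alternatives were other normalizations, filters, probe summaries, variance models and blocks, the authors' table and leaving out arrays. Normexp (offset 50) was run on median spot signals in place of the planned means.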

Additional observations from a re-analysis of the deposited data

How the results depend on the processing

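Under the 20 alternatives, 160 differences of the 8 genes were computed. None had an adjusted limma p under 0.05 or an unadjusted limma p under 0.05, and the lowest adjusted p was 0.699. The sign turned in 20 of the 160, with values from −0.17 to 0.12 where it turned, and that of Stk39 turned in none. Several alternatives left every member difference as in the main fit, so no sign could turn there. These were the other filters, the brightest probe of each gene alone, outlier spots kept, the intensity trend with robust variance and the replicate block. The 160 differences are therefore not independent checks of the sign. Under quantile normalization Slc12a1 was at 0.0098. Under cyclic loess Umod was at 0.013 and Slc12a1 at 1.6e-05, and 2 of the 8 genes were lower. Under normexp followed by quantile normalization Umod was at 0.015, Bsnd at 0.011 and Wnk1 at 0.0017, and 1 of the 8 was lower. With the mean of the probes of a gene, Slc12a1 was at 0.011, Bsnd at 0.015 and Wnk1 at 0.078, and 1 of the 8 was lower. With the slide as a block, which equals leaving out corn oil replicate 1, Slc12a1 was at 0.040.

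Leaving out each array in turn gave ranges of −0.25 to 0.059 for Umod, −0.22 to 0.12 for Slc12a1, −0.13 to 0.15 for Slc12a3, −0.0090 to 0.17 for Kcnj1, −0.13 to 0.041 for Bsnd, −0.22 to −0.017 for Wnk1, −0.0031 to 0.18 for Wnk4 and 0.12 to 0.24 for Stk39. The median of the 8 ranged from −0.049 to 0.081, and 3 to 5 of them were lower. For Slc12a1 minus Slc12a3 the range was −0.31 to 0.068. Individual turned values were Slc12a1 at 0.040 without corn oil replicate 1, Slc12a3 at −0.13 and Slc12a1 minus Slc12a3 at 0.039 without corn oil replicate 2, and Bsnd at 0.016 without corn oil replicate 3. When tricresyl phosphate replicate 1 was left out, Umod was at 0.059, Slc12a1 at 0.12, Wnk4 at −0.0031 and Slc12a1 minus Slc12a3 at 0.068. Kcnj1 was at −0.0090 and Bsnd at 0.041 without tricresyl phosphate replicate 3. Leaving out the 2 arrays with the highest hepatocyte markers, an alternative chosen after seeing the data, gave −0.17 for Slc12a3, −0.065 for Kcnj1 and 0.053 for Slc12a1 minus Slc12a3. The cause of these turns was not tested.

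Over all probes 2 passed under normexp followed by quantile normalization, 2 with an intensity trend and robust variance, and between 0 and 1 when an array was left out, the 1 without tricresyl phosphate replicate 3. None was a member. The deviations of same-numbered animals of the groups had correlations of 0.104, −0.06 and −0.017 for numbers 1, 2 and 3. Those of differently numbered animals lay between −0.1 and 0.117. With 3 animals per group these values cannot tell whether the numbers pair animals, and the main fit used no pairing. With the replicate number as a block 0 probes passed, 2658 had an unadjusted limma p under 0.05 against 2337, and no member was called.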
